A study of Mus musculus with 9 samples.

Results

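Wnt proteins are secreted, lipid-modified ligands that bind Frizzled receptors (Fzd) together with the co-receptors Lrp5 or Lrp6 and thereby stabilise β-catenin, which turns on target genes with TCF/LEF factors. R-spondins (Rspo) bind Lgr receptors and keep the E3 ligases Znrf3 and Rnf43 from clearing Frizzled off the cell surface, so they raise the response to Wnt. Secreted Frizzled-related proteins (Sfrp) can bind Wnt outside the cell, and Ror1, Ror2 and Ryk are receptors of the β-catenin-independent arm. In the gut these signals maintain the stem cells of the crypt base, and stromal cells under the epithelium are a main source of them.

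The genes described here are all Wnt ligands, Fzd receptors, Lrp5, Lrp6, Ror1, Ror2, Ryk, R-spondins and Sfrp genes that the platform annotation names by symbol. They were chosen by symbol alone and comprise 48 of the 26423 probes, for 41 of 17778 named genes: 19 ligands, 10 Frizzled receptors, 4 co-receptors (Lrp5, Lrp6, Ror1 and Ror2), 4 R-spondins and 4 Sfrp genes. No probe carries the symbol Ryk, so Ryk has no value. For 6 Frizzled genes there are several probes. Each gene is represented by its brightest probe over all arrays, and the other probes are given where their calls differ. The symbol Fzd10 was also an older name of Fzd2 in mouse per RefSeq, so the identity of the 2 Fzd10 probes rests on the platform annotation.

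Colon RNA came from female BALB/c mice, with 3 arrays for each of 3 groups. Vanillin mice had 12.5 mg/kg of the carcinogen azoxymethane (AOM) by intraperitoneal injection on day 1. Dextran sodium sulfate (DSS), a gut irritant, was given at 2.5% in the drinking water from day 8 on, for 5 days followed by 16 days of plain water, and this was done for 3 additional cycles. They also took 100 mg/kg vanillin, the vanilla aroma aldehyde, by mouth for 91 days. Sham mice had the same AOM/DSS course without vanillin, and Mock mice were left untreated. The labels give neither the age of the mice nor a part of the colon, do not separate tumour from other mucosa, and do not tell whether each array had its own mouse. The p-values therefore cover the spread of these arrays alone, and that spread may be technical. Values are the deposited intensities on a linear scale, and changes are differences of log2(intensity + 16) with their standard error (SE). Levels are compared between arrays for the same probe, not between probes.

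The arrays of a group correlated at 0.9952 to 0.9976 over all probes (log2 scale). The correlation was 0.9642 to 0.9665 between Vanillin and Sham, 0.9691 to 0.9728 between Vanillin and Mock, and 0.9259 to 0.9285 between Sham and Mock. Colon epithelium markers were present in every group, with a summed intensity of 217672 to 221963 in Vanillin, 227720 to 244794 in Sham and 216576 to 226409 in Mock over 11 measured genes. Of these, the probe for Krt8 was at background in all groups. In this list Epcam and Lgals4, between 50722 and 65509 in all arrays and so close to the highest value of the table (65510), carried most of each sum, which therefore says little about differences. Among the others, Cdx2 rose by 3.13 and Muc2 by 1.35 in Sham minus Mock, while Slc26a3 fell by 2.98 and Car1 fell by 1.37. Over the list, 4 genes rose, 3 fell and 4 were not called. The groups also differed in muscle, skin and fat markers. Smooth muscle markers (6 genes) summed to 46551 to 49840 in Vanillin, 40406 to 43125 in Sham and 93504 to 94877 in Mock, and all 6 were called lower against Mock in both AOM/DSS groups. Acta2 carried most of each of these sums and, at 65265, 65509 and 65509 in Mock, was close to the highest value of the table. The size of the difference between the smooth muscle sums of Mock and the other groups is therefore uncertain. The 14 markers of squamous epithelium and epidermis summed to 365252 to 421633 in Vanillin, 27830 to 28919 in Sham and 621337 to 624739 in Mock. In this list Krt10 and Lor had means of 60972 or more in Vanillin and Mock, close to the highest value of the table. Krt14 varied within Vanillin, at 64969, 63608 and 11506. The size of the difference between the Vanillin and Mock sums is therefore uncertain. Adipocyte markers (12 genes) summed to 161578 to 168929 in Vanillin, 5429 to 5499 in Sham and 181086 to 186703 in Mock, and skeletal muscle markers (7 genes) to 41158 to 47389 in Vanillin, 2572 to 2715 in Sham and 118168 to 126765 in Mock. Among the adipocyte markers, Car3 had means of 62592 in Vanillin and 64051 in Mock, again close to the highest value of the table. Hair follicle markers (16 genes) followed the same order of groups, at 63308 to 66824 in Vanillin, 3266 to 3433 in Sham and 124504 to 130292 in Mock. In bulk tissue, fewer cells of a type and less RNA per cell cannot be told apart. Nor can a difference in the tissue taken be told from a change within the colon, since the labels give no part of the colon. The part of these tissues in the results below was not tested.

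**Figure D1:**
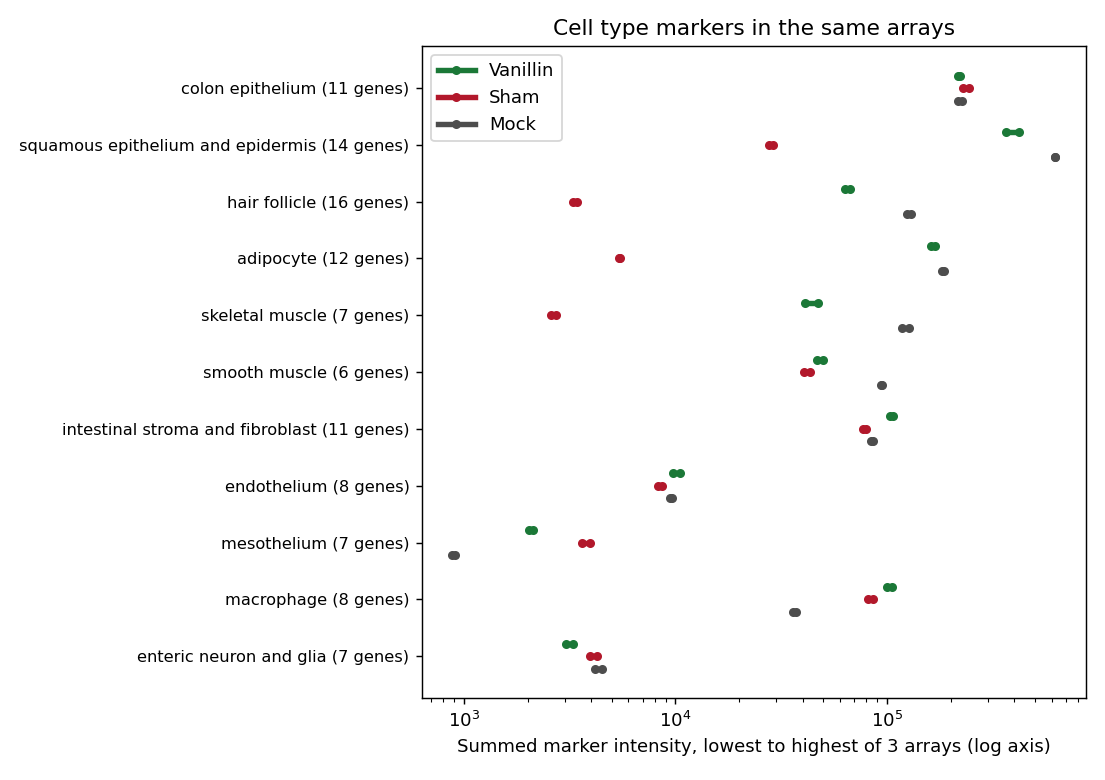
Summed intensity of the markers of each cell type (log axis), drawn from the lowest to the highest of the 3 arrays of Vanillin, Sham and Mock. Squamous, hair follicle, adipocyte and skeletal muscle markers lie lowest in Sham and highest in Mock, while the colon epithelium sums of Vanillin and Mock overlap and rest mostly on Epcam and Lgals4, near the top of the scale.

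Promoter windows are shown for the ligand that rose most with AOM/DSS (Wnt6), for a pair of neighbouring ligand genes that both fell (Wnt3a and Wnt9a) and for the R-spondin that fell most (Rspo1). The sequences are RefSeq's, build GRCm38.p6, from 250 bases before to 50 after the start of transcription, 5′ to 3′ on the strand of the gene, with matches to the GC box (GGGCGG, either strand) in capitals.
Wnt6 (chr1:74771642-74771941, plus strand): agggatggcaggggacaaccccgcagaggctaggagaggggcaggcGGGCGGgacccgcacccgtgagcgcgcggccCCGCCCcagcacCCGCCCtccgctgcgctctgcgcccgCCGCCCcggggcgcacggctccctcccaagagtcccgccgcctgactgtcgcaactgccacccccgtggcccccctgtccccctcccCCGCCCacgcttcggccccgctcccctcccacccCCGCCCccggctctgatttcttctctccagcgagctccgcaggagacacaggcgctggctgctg
Wnt3a (chr11:59290702-59291001, minus strand): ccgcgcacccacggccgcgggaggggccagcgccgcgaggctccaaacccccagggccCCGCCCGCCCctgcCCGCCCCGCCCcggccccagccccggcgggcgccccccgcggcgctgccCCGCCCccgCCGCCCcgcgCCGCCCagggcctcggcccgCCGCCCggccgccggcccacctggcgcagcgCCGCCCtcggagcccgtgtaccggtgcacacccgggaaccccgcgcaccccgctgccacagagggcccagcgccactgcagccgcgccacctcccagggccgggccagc
Wnt9a (chr11:59306680-59306979, plus strand): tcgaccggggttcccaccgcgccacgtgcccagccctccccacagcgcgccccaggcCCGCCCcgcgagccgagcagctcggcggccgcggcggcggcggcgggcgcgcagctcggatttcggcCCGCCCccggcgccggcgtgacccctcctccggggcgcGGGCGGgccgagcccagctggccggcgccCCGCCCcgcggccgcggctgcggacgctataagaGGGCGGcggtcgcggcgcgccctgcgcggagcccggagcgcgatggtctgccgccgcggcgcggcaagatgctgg
Rspo1 (chr4:124986180-124986479, plus strand): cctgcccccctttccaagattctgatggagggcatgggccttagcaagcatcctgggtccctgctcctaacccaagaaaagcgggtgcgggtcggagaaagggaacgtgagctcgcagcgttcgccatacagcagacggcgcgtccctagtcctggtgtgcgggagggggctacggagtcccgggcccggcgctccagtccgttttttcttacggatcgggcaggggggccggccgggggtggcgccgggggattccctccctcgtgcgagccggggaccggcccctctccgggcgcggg

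The Wnt6 window held 6 GC boxes, that of Wnt3a 9, that of Wnt9a 5 and that of Rspo1 0. The promoter table matched 27 of the 41 genes, with 30 windows. Of these, 23 (76.7%) held a GC box, against 35.7% of all 32851 promoter windows, and the median GC content was 70.8% against 52.7%. The core of the TCF/LEF site (CTTTGA or CTTTGT, either strand) was found in 8 of the 30 windows (26.7%) and in 31.2% of all windows. It was in none of the 4 windows shown. CCAAT was in 36.7% of the members' windows and 37.4% of all, and TATAAA in 6.67% and 13.6%. A match is a description of the letters, not a site in use.

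Sham against Mock compares the RNA levels of these genes between AOM/DSS mice without vanillin and untreated mice. One ligand, Wnt6, rose strongly, while a set of receptors, R-spondins, secreted Frizzled-related proteins and ligands fell. Of the 41 genes, 6 rose, 19 fell and 16 were not called, with a median change of -0.16 on the log2 scale against 0.11 over all named genes. A gene was called at an adjusted p under 0.05 (limma, Benjamini-Hochberg over all probes). Of all named genes, 64.5% were called, 39.3% higher and 25.2% lower, so the share of members called (61.0%) was near the background. The arrays of Sham and Mock did not overlap for 31 members (75.6%), and for 71.6% of all named genes. Falls of at least 1 on the log2 scale were seen for 9 members and a rise of that size for 1, and 8.64% and 6.72% of all named genes changed by as much.

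Wnt6, a ligand of epithelia, had intensities of 4212, 3823 and 4673 in Vanillin, 2975, 2861 and 3878 in Sham, and 491, 482 and 525 in Mock. All arrays of both AOM/DSS groups lay above all Mock arrays. The change was 2.65 (SE 0.12, limma adjusted p = 7.9e-08) in Sham minus Mock, a 6.26-fold rise, and 3.04 (SE 0.12, limma adjusted p = 7.4e-08) in Vanillin minus Mock. Its chromosomal neighbour Wnt10a, a ligand of skin appendages and teeth, had 1285, 894 and 1112 in Vanillin, 1108, 1155 and 1064 in Sham, and 885, 908 and 912 in Mock. Wnt10a thus moved far less, by 0.29 (SE 0.11, limma adjusted p = 0.048) in Sham minus Mock, and this call was lost at adjusted p of 0.066 to 0.13 without any of the 3 Mock arrays, any of the 3 Sham arrays or Vanillin replicate 3.

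Among the ligands that fell were the neighbours Wnt3a and Wnt9a. Wnt3a, which drives canonical signalling in many tissues, had 264, 262 and 214 in Vanillin, 146, 167 and 96.5 in Sham, and 447, 477 and 450 in Mock. Wnt9a, a ligand of developing joints, had 381, 308 and 326 in Vanillin, 285, 272 and 267 in Sham, and 801, 835 and 756 in Mock. The 3 groups did not overlap for either gene, with Sham lowest and Mock highest. Wnt3a fell by 1.66 (SE 0.16, limma adjusted p = 1.9e-05) and Wnt9a by 1.48 (SE 0.078, limma adjusted p = 2.5e-07) in Sham minus Mock.

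Wnt3, the ligand that Paneth cells supply to small-intestinal crypts, had 498, 491 and 442 in Vanillin, 271, 292 and 277 in Sham, and 513, 589 and 545 in Mock. It fell by 0.93 (SE 0.068, limma adjusted p = 2.5e-06) in Sham minus Mock, with no overlap. Its neighbour Wnt9b, needed for kidney development, had 379, 405 and 412 in Vanillin, 472, 503 and 504 in Sham, and 463, 411 and 419 in Mock. Here Sham lay highest, by 0.19 over Mock (SE 0.061, limma adjusted p = 0.024), a call lost at 0.069 to 0.085 without any 1 of Mock replicates 2 and 3 or Sham replicates 2 and 3. Wnt7b, a ligand of lung and skin epithelium, had 217, 189 and 189 in Vanillin, 169, 159 and 173 in Sham, and 363, 340 and 316 in Mock, a fall of 0.96 in Sham minus Mock (SE 0.072, limma adjusted p = 3.1e-06). Its paralogue Wnt7a, with 158, 156 and 161 in Vanillin, 185, 177 and 177 in Sham and 123, 121 and 121 in Mock, went the other way, by 0.51 (SE 0.042, limma adjusted p = 5.9e-06).

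Wnt5a, the main ligand of the β-catenin-independent arm, had 2405, 2449 and 2347 in Vanillin, 2260, 2163 and 2267 in Sham, and 2108, 1987 and 2114 in Mock. The groups stood in steps without overlap, yet the change of 0.11 (SE 0.048) was not called (limma adjusted p = 0.082). Wnt5b had 370, 339 and 321 in Vanillin, 340, 327 and 345 in Sham, and 416, 384 and 383 in Mock, with a fall of 0.22 in Sham minus Mock (SE 0.062, limma adjusted p = 0.015, and 0.053 without Mock replicate 1). Wnt4, known from kidney and gonad development, had 167, 158 and 151 in Vanillin, 187, 208 and 168 in Sham, and 185, 213 and 187 in Mock. Wnt11, a ligand of cell movement, had 260, 267 and 234 in Vanillin, 286, 320 and 297 in Sham, and 203, 326 and 287 in Mock. For these, Sham and Mock overlapped and were not called (-0.05, SE 0.083, and 0.16, SE 0.14). Wnt16, Wnt10a, Wnt9b and Wnt7a made up the risers among ligands beside Wnt6, at 0.19 to 0.51, and Wnt16 rose by 0.32 (SE 0.066, limma adjusted p = 0.0023). Altogether 5 of 19 ligands rose, 6 fell and 8 were not called, so 57.9% were called, against 64.5% of all named genes.

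Among the receptors, Fzd6, Fzd7 and Fzd10 fell most. Fzd6, which orients cells within epithelia and hairs in mouse skin, had 2863, 3075 and 2892 in Vanillin, 1644, 1615 and 1512 in Sham, and 5726, 5834 and 6121 in Mock. Fzd7, a receptor needed by mouse Lgr5+ stem cells, had 5351, 5071 and 4908 in Vanillin, 2813, 2741 and 3182 in Sham, and 6065, 6939 and 6545 in Mock. Neither receptor overlapped between any groups, and both were lowest in Sham. Fzd6 fell by 1.88 (SE 0.055, limma adjusted p = 3.8e-09) and Fzd7 by 1.16 (SE 0.075, limma adjusted p = 1e-06) in Sham minus Mock.

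Fzd10 had 695, 747 and 733 in Vanillin, 307, 342 and 339 in Sham, and 1434, 1327 and 1400 in Mock. Its second probe had 603, 573 and 523 in Vanillin, 215, 194 and 204 in Sham, and 1174, 1219 and 1195 in Mock. The probes thus gave the same order without overlap, at -2.02 (SE 0.059, limma adjusted p = 3.9e-09) and -2.46 (SE 0.063, limma adjusted p = 1.5e-09) in Sham minus Mock. Fzd5, a canonical receptor of the intestinal epithelium, had 1735, 1791 and 1894 in Vanillin, 2243, 2154 and 2170 in Sham, and 1981, 2061 and 2082 in Mock. In Sham minus Mock it was not called on any of its 3 probes (0.10, SE 0.05, limma adjusted p = 0.12, on the brightest).

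The other Frizzled genes moved less. Fzd3 fell by 0.64 (SE 0.07, limma adjusted p = 4.2e-05), and Fzd9 rose by 0.30 (SE 0.1, limma adjusted p = 0.036), a call lost at 0.062 to 0.11 without any 1 of Mock replicates 2 and 3 or of the Sham arrays. Fzd4, the receptor of norrin in blood vessels, was dim, with 52.4, 46.1 and 43.7 in Vanillin, 25.8, 26.7 and 28.0 in Sham, and 43.3, 54.1 and 41.6 in Mock. Sham lay below both other groups, by 0.54 against Mock (SE 0.083, limma adjusted p = 0.00042), while the dimmer probe was not called (-0.89, SE 0.37, and 0.41, SE 0.37, in Vanillin minus Sham). Fzd2 probes disagreed. The brighter one spread from 838 to 2323 within Vanillin and was not called in Sham minus Mock (0.09, SE 0.37), whereas the dimmer one, with 428, 397 and 352 in Vanillin, 330, 298 and 341 in Sham and 554, 597 and 580 in Mock, fell by 0.81 (SE 0.079, limma adjusted p = 1.9e-05). Fzd1 (-0.16, SE 0.072) and Fzd8 (-0.35, SE 0.15) were not called on the brightest probe, though the dim second probe of Fzd8 was lower by 0.52 (SE 0.08, limma adjusted p = 0.00039). Fzd8 was called on its brightest probe without Vanillin replicate 1.

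Co-receptors were nearly level. Lrp5 had 659, 708 and 652 in Vanillin, 686, 784 and 790 in Sham, and 760, 668 and 685 in Mock, and all groups overlapped. Its change in Sham minus Mock was 0.09 (SE 0.074, limma adjusted p = 0.3). The Lrp6 probe gave no usable level, at 7.8, 6.7 and 4.6 in Vanillin, 4.9, 8.9 and 7.9 in Sham, and 8.8, 6.7 and 5.6 in Mock. Ror1 had 107, 102 and 102 in Vanillin, 102, 94.5 and 98.8 in Sham, and 133, 127 and 129 in Mock, and was the co-receptor that fell, by 0.35 (SE 0.046, limma adjusted p = 0.00014). Ror2, the main Wnt5a receptor, had 488, 440 and 421 in Vanillin, 694, 628 and 636 in Sham, and 639, 701 and 650 in Mock. Sham and Mock overlapped for Ror2 (-0.02, SE 0.07), with Vanillin below both.

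Of the 4 R-spondins, 3 fell in Sham minus Mock. Rspo1, a signal of mesothelium and stroma that feeds epithelial stem cells, had 92.6, 105 and 105 in Vanillin, 39.4, 35.9 and 37.9 in Sham, and 233, 222 and 233 in Mock. Rspo3, the chief R-spondin of the colon stroma in mice, had 314, 267 and 316 in Vanillin, 216, 190 and 221 in Sham, and 366, 362 and 380 in Mock. Both had their lowest arrays in Sham and their highest in Mock, and no groups overlapped. Rspo1 fell by 2.19 (SE 0.058, limma adjusted p = 1.9e-09) and Rspo3 by 0.78 (SE 0.079, limma adjusted p = 2.4e-05). Rspo2, known for limb and lung growth, had 115, 118 and 128 in Vanillin, 120, 116 and 136 in Sham, and 152, 144 and 154 in Mock, a fall of 0.25 in Sham minus Mock (SE 0.065, limma adjusted p = 0.0087). Rspo4, a gene of nail growth in humans, stayed between 16.2 and 27.0 in all arrays and was not called (0.13, SE 0.087). Of the 7 mesothelium markers, 5 rose and 2, Bnc1 (-1.65) and Calb2 (-0.23), fell in Sham minus Mock. Their summed levels were 2033 to 2115 in Vanillin, 3618 to 3931 in Sham and 882 to 910 in Mock. Msln and Upk1b carried most of the sums in Vanillin and Sham, while Calb2 (mean 359) was the largest part in Mock.

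All 4 Sfrp genes fell in Sham minus Mock. Sfrp4, a stromal and adipose antagonist, had 1380, 1499 and 1523 in Vanillin, 374, 316 and 318 in Sham, and 3008, 2710 and 2926 in Mock. That is the steepest fall among the members, at 3.04 on the log2 scale, or 8.24-fold (SE 0.077, limma adjusted p = 1.5e-09). Sfrp2, a fibroblast product, had 2791, 2762 and 2610 in Vanillin, 1380, 1223 and 1339 in Sham, and 3261, 3331 and 3118 in Mock, and it fell by 1.29 (SE 0.059, limma adjusted p = 9.6e-08). Sfrp5, an adipokine that is also expressed in gut, had 304, 309 and 270 in Vanillin, 252, 217 and 192 in Sham, and 496, 514 and 467 in Mock, with a fall of 1.11 (SE 0.095, limma adjusted p = 7.5e-06). Sfrp1 had 7403, 7531 and 7066 in Vanillin, 5426, 5099 and 4910 in Sham, and 8201, 7453 and 8561 in Mock, and fell by 0.65 (SE 0.065, limma adjusted p = 2.4e-05). In each of the 4, all Sham arrays lay below all arrays of both other groups.

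**Figure D2:**
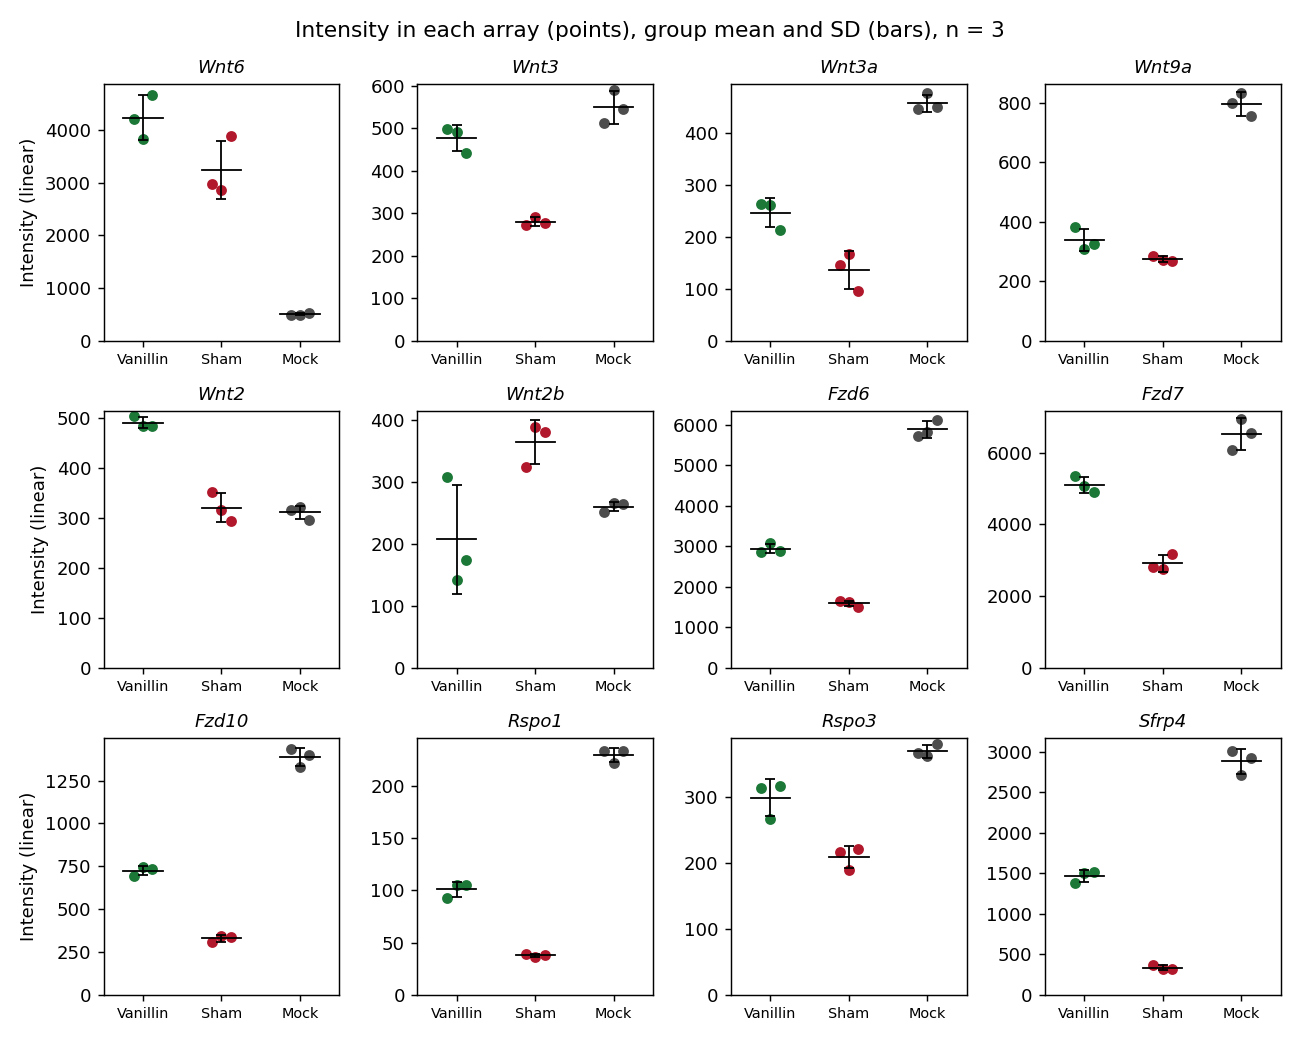
Intensity (linear axis from 0) of 12 Wnt-family genes in each array of Vanillin, Sham and Mock, with the group mean and SD (n = 3). Wnt6 is at 2861 or more in every Vanillin and Sham array and at 482 to 525 in Mock, whereas Sfrp4, Rspo1, Fzd10, Fzd6 and Wnt3a are lowest in Sham.

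Of the 19 members that fell in Sham minus Mock, 16 had group means lowest in Sham and highest in Mock. The exceptions were Rspo2, with Vanillin below Sham, and Wnt10b and Fzd4, with Vanillin above Mock. The squamous, hair follicle, adipocyte, skeletal muscle and smooth muscle sums given above had the order of the 16. The share of all named genes with that order was not counted, so the count is not read as a trait of the members. The part of these tissues in the falls was not tested. Wnt6 did not share that order. The intestinal stroma and fibroblast sums over 11 genes were 103857 to 106711 in Vanillin, 76694 to 79951 in Sham and 84429 to 85783 in Mock. Dcn carried most of each sum, with means of 65046 in Vanillin, 55152 in Sham and 56556 in Mock. In Vanillin it was close to the highest value of the table, so these sums say little about differences. In that list 5 genes rose, 5 fell and 1 was not called in Sham minus Mock. The count of 6 members that rose was 3 without Mock replicate 2, without Mock replicate 3 and without Sham replicate 3, while the 19 that fell ranged from 18 to 20.

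Other genes of the pathway were counted in the same comparison. Of 47 other Wnt pathway genes with a probe, of 50 listed, 24 rose, 14 fell and 9 were not called in Sham minus Mock. The shares of all named genes in that comparison were 39.3% called higher and 25.2% called lower. All 5 genes for R-spondin receptors and their ligases rose. Lgr5, the stem cell receptor for R-spondins, had 4329, 4097 and 3930 in Vanillin, 7524, 7274 and 6488 in Sham, and 940, 952 and 916 in Mock, a rise of 2.90 in Sham minus Mock (SE 0.066, limma adjusted p = 6.7e-10). Lgr6 rose by 0.91 (SE 0.074), Rnf43 by 2.40 (SE 0.1) and Znrf3 by 0.77 (SE 0.093). The target Axin2, which feeds back on β-catenin, had 3224, 3188 and 3047 in Vanillin, 4403, 4543 and 4416 in Sham, and 905, 880 and 909 in Mock. Of 7 genes for secreted inhibitors and the Kremen receptors of Dkk proteins, 4 rose. Among them was Wif1, with 28603, 29676 and 29447 in Vanillin, 33513, 33946 and 30297 in Sham, and 919, 966 and 906 in Mock. Dkk2 rose by 3.18 (SE 0.055) and Dkk3 by 0.54 (SE 0.071), and Kremen2 by 0.69 (SE 0.058), while Kremen1 fell by 0.64 (SE 0.078). Of 6 nuclear partners 3 rose, among them Tcf7 by 1.67 (SE 0.06) and Lef1 by 2.32 (SE 0.066), and 1, the β-catenin cofactor Bcl9l, fell by 1.19 (SE 0.092). Of 4 feedback and target genes 3 rose, and Nkd2 fell by 1.05 (SE 0.063).

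On the side of ligand production, Porcn, the enzyme that attaches the lipid to Wnt proteins, had 958, 851 and 907 in Vanillin, 598, 565 and 653 in Sham, and 2125, 2132 and 2177 in Mock. It fell by 1.80 in Sham minus Mock (SE 0.065, limma adjusted p = 1.8e-08), the order of groups seen in Fzd6 and Rspo1. Wls, the carrier that brings Wnt to the cell surface, rose by 0.17 (SE 0.049, limma adjusted p = 0.015). In the planar polarity and calcium arm, 7 of 11 genes fell and 3 rose, with Celsr2 at -2.03 (SE 0.058). Celsr2 was taken as an example after its value was seen.

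**Figure D3:**
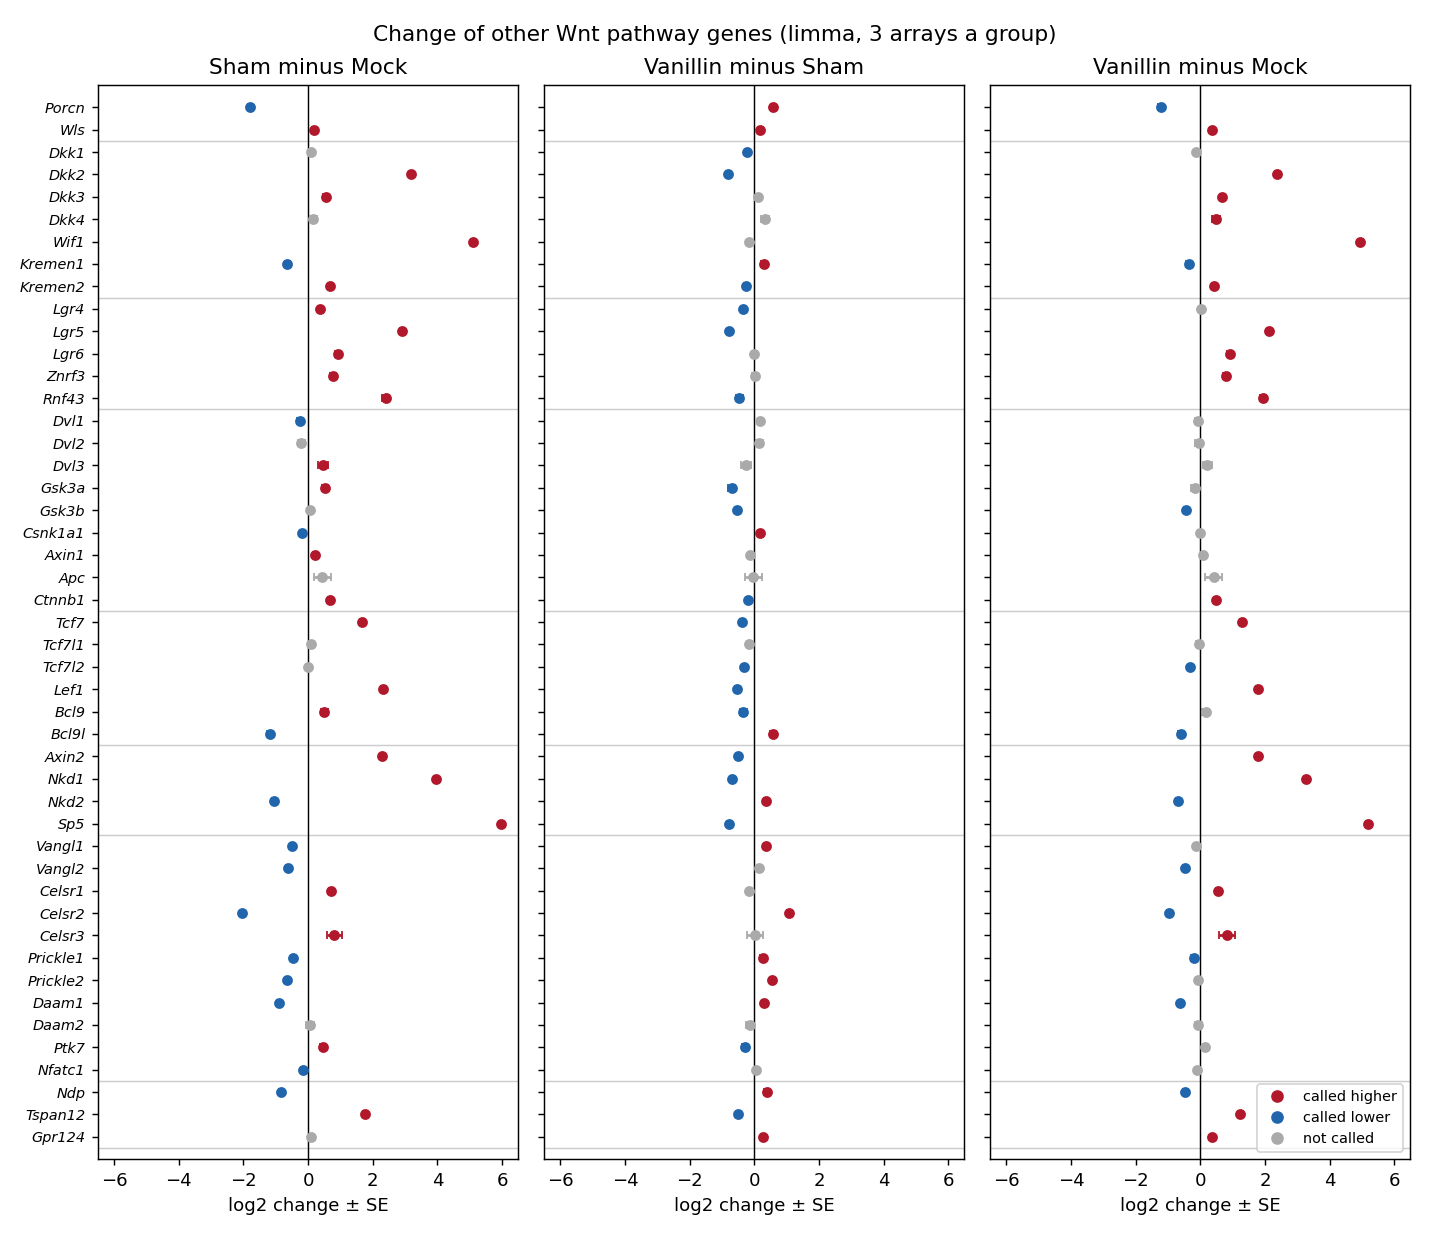
Change (log2, with SE) of 47 other Wnt pathway genes in the 3 comparisons, in blocks by role from secretion at the top to other Frizzled ligands and co-receptors at the bottom. In Sham minus Mock, Wif1, Sp5, Nkd1, Dkk2, Lgr5 and Axin2 lie far to the right and Porcn and Celsr2 to the left.

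Vanillin against Sham compares AOM/DSS mice with and without vanillin. Among the members higher with vanillin were the Sfrp genes, several receptors, 2 R-spondins, Wnt3a, Wnt3 and Wnt2. Wnt2b, Ror2, Wnt16, Wnt9b and Fzd5 were among those lower, though the Wnt2b call was lost in 2 alternative settings. Of the 41 members, 19 rose, 7 fell and 15 were not called, with a median change of 0.11 on the log2 scale against -0.11 over all named genes. Of all named genes, 52.5% were called, 17.4% higher and 35.1% lower, against 63.4% of the members called. Rises of at least 1 were found for 4 members, Sfrp4, Rspo1, Fzd10 and Sfrp2, and for 4.24% of all named genes. No member fell by as much, against 0.703% of all named genes. The arrays did not overlap for 30 members (73.2%) and for 60.5% of all named genes. Sham arrays serve in this comparison and in Sham minus Mock, so the changes of a gene in the 2 comparisons are not independent of each other.

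Sfrp4 rose by 2.08 (SE 0.077, limma adjusted p = 6e-08), Sfrp2 by 1.04 (SE 0.059, limma adjusted p = 1.3e-06), Sfrp1 by 0.51 (SE 0.065, limma adjusted p = 0.00024) and Sfrp5 by 0.40 (SE 0.095, limma adjusted p = 0.0076). In none of the 4 did the Vanillin and Sham arrays overlap. Rspo1 rose by 1.12 (SE 0.058, limma adjusted p = 6.3e-07) and Rspo3 by 0.48 (SE 0.079, limma adjusted p = 0.00098). Rspo2 (-0.04, SE 0.065) and Rspo4 (-0.02, SE 0.087) were not called, with overlapping arrays. Of the 10 Frizzled genes 6 rose, with Fzd10 at 1.10 (SE 0.059), Fzd6 at 0.88 (SE 0.055), Fzd7 at 0.81 (SE 0.075) and Fzd4 at 0.56 (SE 0.083). The Fzd4 call had an adjusted p of 0.059 in limma with the mean of its probes. The dimmer Fzd2 probe rose by 0.27 (SE 0.079, limma adjusted p = 0.022), while the brighter one was not called (0.05, SE 0.37). Fzd1, with 1917, 1997 and 2167 in Vanillin, 1536, 1627 and 1566 in Sham, and 1945, 1664 and 1706 in Mock, rose by 0.36 (SE 0.072, limma adjusted p = 0.0033).

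Fzd5 was the Frizzled gene that fell, by 0.28 (SE 0.05, limma adjusted p = 0.0018) on its brightest probe and by 0.56 (SE 0.12, limma adjusted p = 0.0038) on the second, while the third, dimmest probe was not called (0.17, SE 0.11). All Vanillin arrays lay below all Sham arrays on both probes that were called. Ror2 fell by 0.52 (SE 0.07, limma adjusted p = 0.00031), again with no overlap. Lrp5 (-0.16, SE 0.074), Lrp6 (-0.05, SE 0.087) and Ror1 (0.06, SE 0.046) were not called, but Lrp5 had an adjusted p of 0.037 in limma without Sham replicate 1.

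Among the ligands 7 rose, 5 fell and 7 were not called, so 63.2% were called, against 52.5% of all named genes. Wnt2, a stromal ligand raised in human colorectal tumours, had 503, 484 and 483 in Vanillin, 351, 315 and 294 in Sham, and 315, 321 and 295 in Mock. It was higher in Vanillin than in both other groups, by 0.60 over Sham (SE 0.067, limma adjusted p = 0.00012), while Sham and Mock overlapped. Wnt2b, a ligand of intestinal stroma, had 307, 141 and 173 in Vanillin, 323, 389 and 381 in Sham, and 251, 265 and 264 in Mock. Vanillin replicate 1 stood well above its group, and the fall of 0.84 in Vanillin minus Sham (SE 0.22, limma adjusted p = 0.013) had an adjusted p of 0.051 in limma without Vanillin replicate 3, and likewise 0.051 with the replicate number as a block among the 6 arrays compared. In Sham minus Mock, Wnt2b was not called (0.46, SE 0.22, limma adjusted p = 0.11) although the arrays did not overlap, and it had an adjusted p of 0.0027 without Vanillin replicate 1, which enters the shared estimate of the spread. Wnt3 rose by 0.74 (SE 0.068, limma adjusted p = 3.3e-05), Wnt3a by 0.81 (SE 0.16, limma adjusted p = 0.0032) and Wnt9a by 0.28 (SE 0.078, limma adjusted p = 0.016).

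Wnt6 rose by a further 0.39 (SE 0.12, limma adjusted p = 0.023), but its Vanillin and Sham arrays overlapped. That call was lost at 0.078 without Sham replicate 1 or Sham replicate 2 and at 0.081 without Vanillin replicate 3. Wnt7b rose by 0.23 (SE 0.072, limma adjusted p = 0.029), which was lost at up to 0.091 in the same test without Sham replicate 1, Sham replicate 2 or Vanillin replicate 1. Wnt16, with 138, 131 and 118 in Vanillin, 159, 179 and 169 in Sham, and 127, 136 and 133 in Mock, fell by 0.35 (SE 0.066, limma adjusted p = 0.0021), and Wnt9b fell by 0.30 (SE 0.061, limma adjusted p = 0.0037). Wnt7a fell by 0.17 (SE 0.042, limma adjusted p = 0.01, and 0.061 with the replicate number as a block among the 6 arrays compared). Not called were Wnt4 (-0.22, SE 0.083), Wnt5a (0.11, SE 0.048), Wnt5b (0.02, SE 0.062), Wnt10a (-0.03, SE 0.11) and Wnt11 (-0.23, SE 0.14), beside Wnt1 and Wnt8b. Wnt4 had an adjusted p of 0.020 to 0.049 in limma in 5 alternative settings, among them the removal of Mock replicate 2 or Sham replicate 3 and the replicate number as a block over all 9 arrays (0.035). Wnt11 had 0.033 to 0.036 without Mock replicate 1 and with only the 6 arrays compared, with or without the block.

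Squamous (13 of 14 genes), hair follicle (14 of 16), adipocyte (10 of 12), smooth muscle (4 of 6) and skeletal muscle markers (6 of 7) were called higher in the same comparison, and their part in the rises was not tested. Stroma and fibroblast markers were higher in 9 of 11, lower in 1 and not called in 1, with a median change of 0.42.

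Of the 47 other pathway genes, 13 rose, 18 fell and 16 were not called in Vanillin minus Sham. Beside them, 17.4% of all named genes were called higher and 35.1% lower, so falls were common outside the pathway too. Those that fell included Lgr5 (-0.78, SE 0.066, limma adjusted p = 1.8e-05), Rnf43 (-0.46, SE 0.1), Axin2 (-0.50, SE 0.045), Dkk2 (-0.81, SE 0.055), Tcf7 (-0.38, SE 0.06) and Lef1 (-0.53, SE 0.066). Porcn rose by 0.57 (SE 0.065, limma adjusted p = 0.00013). Wif1 (-0.15, SE 0.057, limma adjusted p = 0.051), Znrf3 (0.03, SE 0.093), Lgr6 (-0.00, SE 0.074) and Dkk3 (0.13, SE 0.071) were not called. Among the 5 R-spondin receptor and ligase genes 3 fell and 2 were not called. Counts this small are not read against the shares of all named genes.

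**Figure D4:**
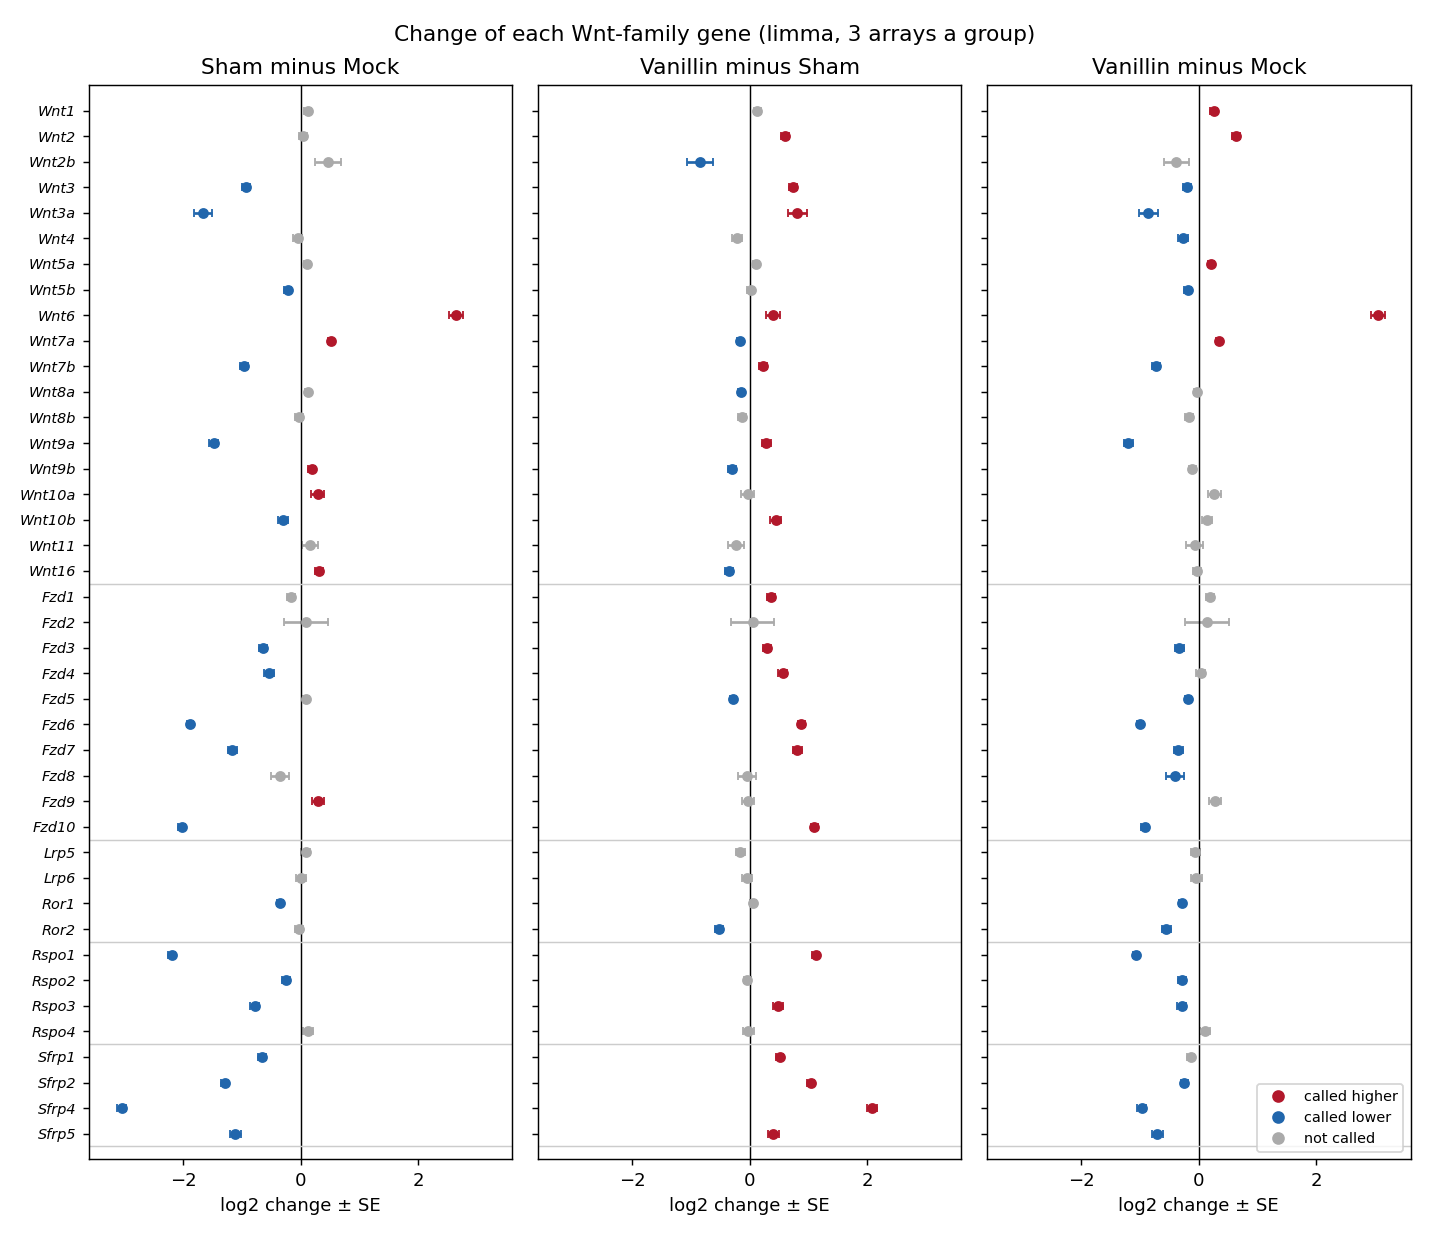
Change (log2, with SE) of the 41 Wnt-family genes in each of the 3 comparisons, with called genes in colour. Wnt6 lies far to the right against Mock (2.65 and 3.04), and the Sfrp genes at the bottom lie left of 0 in Sham minus Mock and right of it in Vanillin minus Sham.

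Vanillin against Mock compares mice given both the AOM/DSS course and vanillin with untreated mice. Wnt6 was higher, and 6 of 10 Frizzled genes, 3 of 4 R-spondins and 3 of 4 Sfrp genes were lower. Of the 41 members, 5 rose, 20 fell and 16 were not called, with a median of -0.18 against -0.00 over all named genes. Of all named genes, 55.3% were called, 26.8% higher and 28.5% lower, against 61.0% of the members. By at least 1, 1 member rose (Wnt6) and 2 fell (Wnt9a and Rspo1), with 4.06% and 4.49% of all named genes. The arrays did not overlap for 26 members (63.4%) and for 64.9% of all named genes. The count of 5 was 8 without Vanillin replicate 1. Mock arrays serve in this comparison and in Sham minus Mock.

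Wnt6 was 8.23-fold higher. Other ligands that rose were Wnt2 (0.63, SE 0.067, limma adjusted p = 5.2e-05), Wnt7a (0.34, SE 0.042), Wnt1 (0.25, SE 0.056) and Wnt5a (0.21, SE 0.048, limma adjusted p = 0.0049). Wnt9a fell by 1.20 (SE 0.078, limma adjusted p = 2e-06), Wnt3a by 0.86 (SE 0.16), Wnt7b by 0.73 (SE 0.072), Wnt4 by 0.27 (SE 0.083), Wnt3 by 0.20 (SE 0.068) and Wnt5b by 0.19 (SE 0.062). The calls of Wnt3, Wnt4 and Wnt5b were near the threshold, at limma adjusted p = 0.039, 0.023 and 0.029. Wnt3 lost its call without Mock replicates 2 or 3, Sham replicate 3 or Vanillin replicates 2 or 3 (0.052 to 0.13). Wnt4 lost it without Mock replicate 2 or Vanillin replicates 2 or 3 (0.058 to 0.08), and Wnt5b without Mock replicate 1 or Vanillin replicates 2 or 3 (up to 0.096). Wnt2b was not called (-0.38, SE 0.22, limma adjusted p = 0.19), but without Vanillin replicate 1 it gave -0.68 with an adjusted p of 0.00083 in the same test.

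Of the receptors, Fzd6 fell by 1.00 (SE 0.055, limma adjusted p = 6.4e-07), Fzd10 by 0.92 (SE 0.059), Fzd7 by 0.35 (SE 0.075), Fzd3 by 0.33 (SE 0.07), Fzd5 by 0.18 (SE 0.05) and Fzd8 by 0.40 (SE 0.15). The Fzd8 call (limma adjusted p = 0.048) was lost in 11 of 18 alternative settings, among them the removal of any array other than Vanillin replicates 2 and 3. That of Fzd5 (0.017) was lost without Mock replicates 2 or 3 or Vanillin replicate 2. The second Fzd5 probe fell by 0.56 (SE 0.12, limma adjusted p = 0.003), and the third, at 0.16 (SE 0.11), was not called. The dim second Fzd3 probe was not called (0.01, SE 0.08), and Fzd3 had an adjusted p of 0.057 in limma with the mean of its probes. The dimmer Fzd2 probe fell by 0.54 (SE 0.079, limma adjusted p = 0.0004), against 0.14 (SE 0.37, not called) on the brighter one. Fzd4, lower in Sham, differed little here (0.03, SE 0.083, not called). Ror2 fell by 0.55 (SE 0.07, limma adjusted p = 0.00017) and Ror1 by 0.29 (SE 0.046).

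Rspo1 fell by 1.07 (SE 0.058, limma adjusted p = 5.7e-07), and Rspo2 and Rspo3 each fell by 0.29 (SE 0.065 and 0.079). Sfrp4 fell by 0.97 (SE 0.077, limma adjusted p = 8.1e-06), Sfrp5 by 0.71 (SE 0.095) and Sfrp2 by 0.25 (SE 0.059). Sfrp1 was not called (-0.14, SE 0.065, limma adjusted p = 0.11), with overlapping arrays, but had an adjusted p of 0.021 to 0.04 in limma with array weights and without Mock replicate 2. Squamous markers were called lower in 9 of 14 genes, hair follicle in 13 of 16, adipocyte in 7 of 12, and skeletal muscle in 7 of 7, and their part in these falls was not tested. Intestinal stroma and fibroblast markers went mostly the other way, with 8 of 11 called higher, 3 lower and a median change of 0.22. Their part was not tested either.

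Of the other pathway genes, 20 of 47 rose, 11 fell and 16 were not called against Mock, beside 26.8% of all named genes called higher and 28.5% lower. Wif1 rose by 4.95 (SE 0.057, limma adjusted p = 5.8e-11), Dkk2 by 2.37, Lgr5 by 2.12, Rnf43 by 1.94, Axin2 by 1.79, Lef1 by 1.79 and Tcf7 by 1.29 on the log2 scale. Porcn fell by 1.23 (SE 0.065).

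**Figure D5:**
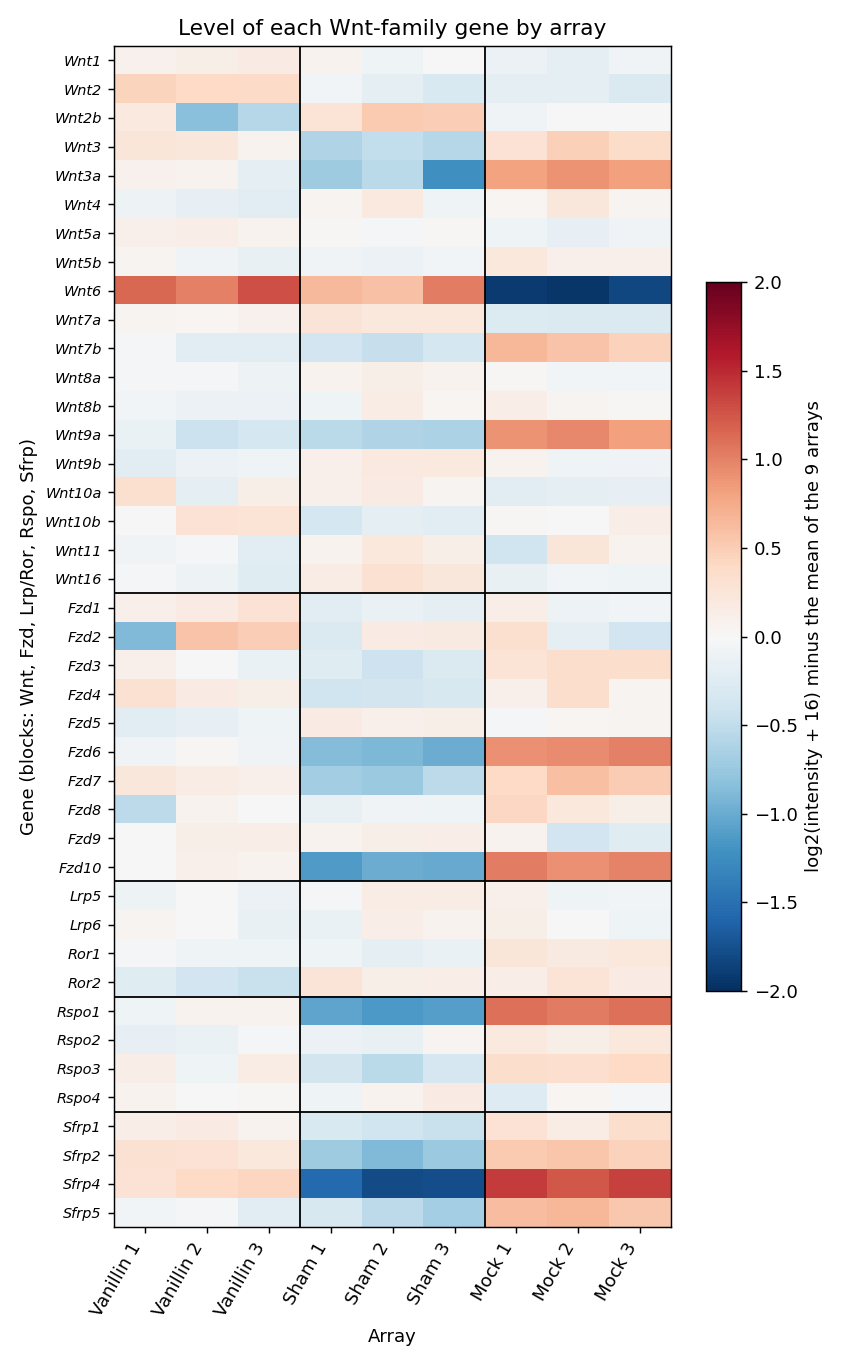
Level of the 41 Wnt-family genes (rows, grouped by role) in the 9 arrays, as log2(intensity + 16) minus the mean of the gene over all arrays, with colours that end at -2 and 2. Most differences run between groups, as in Wnt6 and Sfrp4, and a few genes, such as Fzd2 and Wnt2b, vary within Vanillin.

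Some members gave little to read. Brightest probes of 5 genes, Fzd4, Lrp6, Rspo4, Wnt8a and Wnt10b, stayed below a mean of 50 in every group. The highest member value of any array was 8561 (Sfrp1), against 65510 for the highest probe of the table. Wnt10b averaged 39.4 ± 5.85 in Vanillin, 24.8 ± 2.62 in Sham and 34.2 ± 2.5 in Mock, and Wnt8a averaged 19.7 ± 1.03 in Vanillin, 23.6 ± 0.612 in Sham and 20.5 ± 1.32 in Mock (SD, n = 3 each). Their called changes were small, at 0.44 (SE 0.086) for Wnt10b and -0.15 (SE 0.048) for Wnt8a in Vanillin minus Sham, and -0.30 (SE 0.086) for Wnt10b in Sham minus Mock. The Wnt8a call was lost in 9 of 19 alternative settings, at a limma adjusted p of up to 0.12, among them the replicate block among the 6 arrays compared (0.08) and the removal of any Sham array or of Vanillin replicates 2 or 3. That of Wnt10b in Sham minus Mock was lost at 0.052 to 0.054 without Mock replicate 3 or Sham replicate 1. The Wnt1 and Wnt8b probes, for ligands known from the embryonic nervous system, were brighter and ranged from 344 to 441 and from 93.4 to 116 over all arrays. Of these, Wnt1 was called higher in Vanillin minus Mock (0.25, SE 0.056, limma adjusted p = 0.0052), and Wnt8b was not called in the main fit of any comparison.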

How the data were processed

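Colon RNA was hybridised to 1-colour Cy5 arrays (9 arrays, 3 groups of 3). The deposited values are intensities on a linear scale. Their near-equal medians (319.6 to 320.1) and their 3 to 14 negative values per array are those of background-subtracted values normalized between arrays, but how the authors made them is not given in the labels used here. Only limma is named in the submitters' processing notes, with no role or version. Symbols came from the platform annotation (20377 of 26423 probes with 1 symbol, 6046 without). Negative values were set to 0, 16 was added, and log2 values were fitted with limma 3.58.1 (R 4.3.3) as 3 group means over all 9 arrays. P-values were adjusted by Benjamini-Hochberg over all probes of a comparison and called under 0.05. The arrays' number limits the precision.

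Genes were named if called, changed by at least 1 on the log2 scale without overlap and at a mean of 50 or more in a group compared, or if on a fixed list. Wnt1, Wnt2, Wnt7a, Wnt7b, Wnt8b, Wnt16, Fzd1, Fzd2, Fzd3, Fzd8, Fzd9, Wls, Kremen1, Kremen2, Bcl9l, Nkd2, Celsr2, Sp5 and Nkd1, and the values of dim members, were added after their values were seen. Members, lists and tests were chosen with earlier results of these data known. Same-numbered Vanillin and Sham arrays deviated together (correlations 0.126 to 0.201 for the 3 pairs), while same-numbered pairs with Mock (-0.288 to -0.0162) did not. Differently numbered arrays of different groups spanned -0.203 to 0.215, a range that holds those 3 values. The numbers may thus pair Vanillin and Sham arrays, but the pattern is weak and no label states it. The main fit did not use the numbers. Of the alternatives, 9 changed the pseudocount, filter, fit, normalization or probe choice, and 9 left out 1 array each. A block among the 6 Vanillin and Sham arrays was added after the data were seen. Promoters are RefSeq's, from GRCm38.p6.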

Additional observations from a re-analysis of the deposited data

How the results depend on the processing

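Of 76 called gene changes in the 3 comparisons, 59 kept the call in all alternative settings run (19, of which 1 was for Vanillin minus Sham only) and 17 lost it in at least 1. A further 19 uncalled changes were called in a setting. No called change turned its sign, while 39 pairs of an uncalled change and a setting, over 21 changes, did. The cause of the differences was not tested. In Sham minus Mock, the members called higher numbered 3 with the replicate block and 3 to 7 over the fits that left out 1 array, against 6, and the median change was -0.13 with array weights, -0.22 with the mean of the probes of a gene and -0.21 to -0.10 leaving out 1 array. In Vanillin minus Sham, the median was 0.13 with array weights, 0.13 with the mean of the probes of a gene and 0.09 to 0.15 leaving out 1 array. In Vanillin minus Mock, the members called higher numbered 9 with array weights and 5 to 8 leaving out 1 array, against 5, and the median was -0.20 to -0.15 leaving out 1 array. The counts of members called lower, of members called higher in Vanillin minus Sham and of other pathway genes stayed within 1.5 times in every setting.

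The replicate block over all 9 arrays changed the calls of Wnt10a, Wnt9b and Fzd9 in Sham minus Mock, Wnt4 in Vanillin minus Sham and Fzd8 in Vanillin minus Mock. The block among the 6 Vanillin and Sham arrays gave 19 members higher and 5 lower, against 19 and 7, and changed the calls of Wnt2b, Wnt7a, Wnt8a and Wnt11. The blocks changed no other call of a member. Of 9 arrays, 4 correlated best with their own number. Dim probes, those of 5 genes below 50, limit what can be read from Lrp6, Rspo4, Wnt8a, Wnt10b and Fzd4.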
